A study of Mus musculus with 12 samples.

Results

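The m6A landscape of the normal hippocampus was described from the peaks of wild-type (WT) mice, in which an m6A immunoprecipitation (IP) was compared with its input. The members were all rows of the deposited WT peak list, with no further selection: 33622 of the 68557 peaks that the WT and Tyrobp-/- lists hold together. The study applied MeRIP-seq to hippocampal RNA of 6-month-old male C57BL/6 mice that either lacked Tyrobp, a signalling adaptor of microglia, or were their WT littermates. The Tyrobp-/- line carries a short TALEN deletion in an early exon, in every cell of the body, and the WT mice carry no engineered allele. RNA of 3 hippocampi was pooled into 1 sample, and 3 such samples per genotype each gave an IP and an input library. Poly(A) RNA was fragmented and incubated with an m6A antibody from Synaptic Systems, so the values concern mainly polyadenylated transcripts of whole hippocampal tissue.

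N6-methyladenosine (m6A) is an internal mark of messenger RNA, placed by a nuclear methyltransferase complex around METTL3 and METTL14 at adenosines inside short sequences such as GGACT, removed by the demethylases FTO and ALKBH5, and read by YTH-domain proteins. The mark is known to be dense near stop codons and in long internal exons, and it can alter the splicing, export, translation and decay of the RNA. In the brain it is abundant, and it has been tied to neuronal development, to learning and to the local use of RNA at synapses.

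Sequences of 2 kinds show what a peak of this list can contain. The first is a transcript's start, where the listed blocks could be set beside RefSeq promoter windows of GRCm38.p6. Among the 100 peaks with the highest fold enrichment in 5′ UTRs, the first 50 transcribed bases of the 3 genes shown here lay wholly inside the peak and held GGACT, given in capitals, 5′ to 3′ on the transcribed strand. The Senp3 stretch is chr11:69682055-69682084 on the minus strand, the Myh10 stretch is chr11:68691920-68691949 on the plus strand, and the Jun stretch is chr4:95052185-95052214 on the minus strand.
Senp3: gGGACTgccacacgcggcaagccaggcgac
Myh10: gtggagggagcgGGACTtgggaaggtagct
Jun: caggctggataaGGACTcagagttgcactg
Senp3, a SUMO protease, had a peak of 97.3-fold enrichment and Myh10, a nonmuscle myosin heavy chain, one of 67.4-fold. Jun, an activity-induced transcription factor, had one of 34.9-fold. All 3 peaks were annotated to the 5′ UTR, which need not hold all of their bases. The letters GGACT on the transcribed strand were nearly as common outside peaks as inside, with intervals that overlapped. They stood in 6.10% of the 1935 start windows that lay wholly inside a WT block (exact 95% interval 5.07% to 7.26%), in 5.39% of the 12307 other windows of genes in the WT list (4.99% to 5.80%), and in 5.76% of all 32817 windows. GGAC, which GGACT contains, stood in 21.6% of the windows inside blocks (19.8% to 23.5%) and in 20.2% of the other windows of listed genes (19.5% to 20.9%). A match is a description of the letters and not a methylated site.

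The second kind is a microRNA hairpin whose position lies inside a peak. Of 1005 mouse hairpins in RefSeq, 27 (2.69%) lay wholly inside the blocks of a WT peak, compared without regard to strand. The mature sequences of 3 of them that are known from the brain are shown because each sits in a peak of another strength, with the seed (bases 2 to 8) in capitals.
mmu-miR-9-5p: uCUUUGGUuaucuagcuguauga
mmu-miR-671-5p: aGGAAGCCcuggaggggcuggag
mmu-miR-134-5p: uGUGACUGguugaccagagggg
The Mir671 hairpin (chr5:24592114-24592211, plus strand) lay in a 3′ UTR peak of 16.5-fold enrichment with a log10 p of -804. The Mir9-2 hairpin (chr13:83738814-83738885, plus strand) lay in an exonic peak listed under the noncoding RNA C130071C03Rik with 12.5-fold enrichment and a log10 p of -450. The Mir134 hairpin (chr12:109734139-109734209, plus strand) lay in a 151 bp peak of 4.88-fold enrichment with a log10 p of -3.03. The 3 seeds differ. Since poly(A) selection does not retain the mature microRNAs, the peaks cover longer RNA. Strand was not compared, so whether that RNA is the hairpin's host was not tested.

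The 6 WT libraries held between 61189368 and 73554506 valid reads. The IP libraries contained 50.24%, 49.16% and 49.75% G and C bases, and the input libraries 47.63%, 47.80% and 47.98%. Every IP library was thus above every input library, with means of 49.7% ± 0.541 and 47.8% ± 0.175 (SD, n = 3) and a difference of 1.91 percentage points (two-sided exact permutation test, p = 0.1, the smallest that 3 against 3 allows). With each IP library paired with the input of its own number, the difference was positive in 3 of 3 pairs (exact sign-flip test of the pairing, p = 0.25, the smallest 3 pairs allow). Both p-values concern the spread between pools of mice. Valid reads per library did not separate the kinds of library (exact permutation test, n = 3, p = 0.3). The authors called the peaks on the 3 replicates together, so each peak has 1 value and no replicate error. The reads behind a single peak are unknown, and intervals given for shares and medians of peaks cover counting error only.

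Checked against the stated sex and tissue, the list held 6 WT peaks inside the span of Xist, the RNA that coats the inactive X chromosome of female cells, although male mice are described. They were listed under the names Tsix and Gm27733, had fold enrichments of 3.4 to 131 and reached a log10 p of -4110. Tsix runs antisense to Xist, and the list does not tell their reads apart. Chromosome Y carried 2 peaks, in Ddx3y and Gm20775, both at 6.84-fold with a log10 p of -1.42. The sex of the pooled mice was not tested. Of the tissue's own markers, all 6 of pyramidal neurons and all 5 of dentate granule neurons carried a peak, against 57.6% of all coding genes. At an FDR below 1e-5, 3 of the 5 dentate granule markers did, and the Calb1 peak lay outside the RefSeq span of that gene. By listed name, peaks also lay in 3 of 6 hypothalamic and 2 of 4 choroid plexus markers, and in none of the 3 blood markers. Counted by overlap with RefSeq spans, 4 hypothalamic and 3 choroid plexus markers had a peak.

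Across the 33622 peaks, which carried 15804 gene identifiers, the median fold enrichment of IP over input was 5.54, with quartiles of 3.02 and 9.43 and a range from 1.09 to 331. A fold enrichment of at least 10 was listed for 7340 peaks (21.8%), of at least 20 for 1415 (4.21%), of at least 50 for 111 and of at least 100 for 24. The list was cut at a p of 0.05, and 3476 peaks (10.3%) had a peak-calling FDR of 0.05 or more, whereas 21648 (64.4%) had one below 1e-5. High enrichment was therefore rare, and about 1 peak in 10 stood on weak evidence by the authors' own FDR.

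A peak is listed as 1 or more exonic blocks, with introns between them. The summed blocks measured 326 bp in the median, with quartiles of 180 and 600 bp and a maximum of 6135 bp, whereas the genomic span, introns included, measured 408.5 bp in the median and up to 874414 bp. A single block made up 71.1% of the peaks, and 28.9% (28.5% to 29.4%) joined at least 2 exons, up to 8 blocks. Peaks also overlapped each other: 4457 (13.3%) shared bases with another WT peak, and merging them left 31223 regions.

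Longer peaks had higher fold enrichment. The median was 2.83 for the 4013 peaks of at most 100 bp, 4.68 for the 10279 of 201 to 400 bp, 6.84 for the 7998 of 401 to 800 bp and 11.8 for the 1044 of more than 1600 bp, as the plot by block length shows. Evidence followed the same order, with 18.1% of the shortest and 99.8% of the longest peaks at an FDR below 1e-5. The shortest peaks overlapped a Tyrobp-/- peak in 48.4% of cases and the longest in 99.9%. Over all 33622 peaks, Spearman's rho between fold enrichment and block length was 0.52, given as a description, since peaks share the same libraries and often the same gene.

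**Figure D1:**
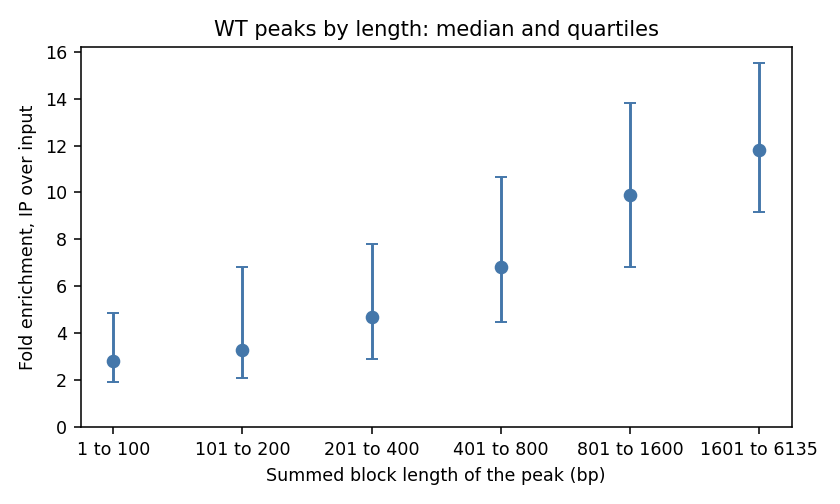
Fold enrichment of IP over input (vertical axis) of WT peaks in 6 bins of summed block length in bp (horizontal axis); points are medians and bars reach from the first to the third quartile of the peaks in the bin. The median goes from 2.83 in the shortest bin to 11.8 in the longest.

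By the authors' annotation, 15876 peaks lay in 3′ UTRs, 6348 in 5′ UTRs, 3858 in first exons and 7540 in other exons. The 3′ UTR peaks were the longest, with median blocks of 388 bp, against 298 bp in 5′ UTRs, 241 bp in first exons and 271 bp in other exons. Thus peaks annotated to 3′ UTRs made up 47.2% of the peaks and 53.3% of the summed block length. Each peak has 1 annotation, so not all of these bases need lie in a 3′ UTR. Peaks that joined several exons were commonest in 5′ UTRs, at 45.7% (44.5% to 46.98%), against 26.7% (26.0% to 27.4%) in 3′ UTRs. Of the 3′ UTR peaks 88.0% overlapped a Tyrobp-/- peak, of the 5′ UTR peaks 75.9%, of the other exon peaks 72.6% and of the first exon peaks 68.3%.

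Fold enrichment differed less between the classes than length did, and the order of the medians depended on a set of repeated values. The median was 6.84 in first exons, 5.86 (5.74 to 6.00) in 5′ UTRs, 5.29 (5.13 to 5.46) in other exons and 5.20 (5.08 to 5.28) in 3′ UTRs. The value 6.84 alone was listed for 1281 peaks (3.81%), and the 10 commonest values, which lay between 3.91 and 12.7 at steps of 0.93 to 1, together for 6254 (18.6%). Peaks at these 10 values had little evidence, with a median log10 p of -2.36, and 17.0% of them had an FDR below 1e-5. They made up 36.1% of first exon peaks, 24.8% of other exon peaks, 21.4% of 5′ UTR peaks and 10.3% of 3′ UTR peaks. Among the remaining peaks the medians were 5.16 in first exons, 4.66 in 3′ UTRs, 4.65 in 5′ UTRs and 4.05 in other exons. Without these 10 values first exons stayed highest and the gap between the UTR classes closed. Other repeats remained, since neighbouring percentiles of first exon peaks also coincided at 13.7, 14.6 and 15.6. At an FDR below 1e-5 the medians were 5.39 in 3′ UTRs and 4.83 in other exons, the reverse of their order in the whole list. The vertical steps in the plot of fold enrichment by class mark the repeated values.

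**Figure D2:**
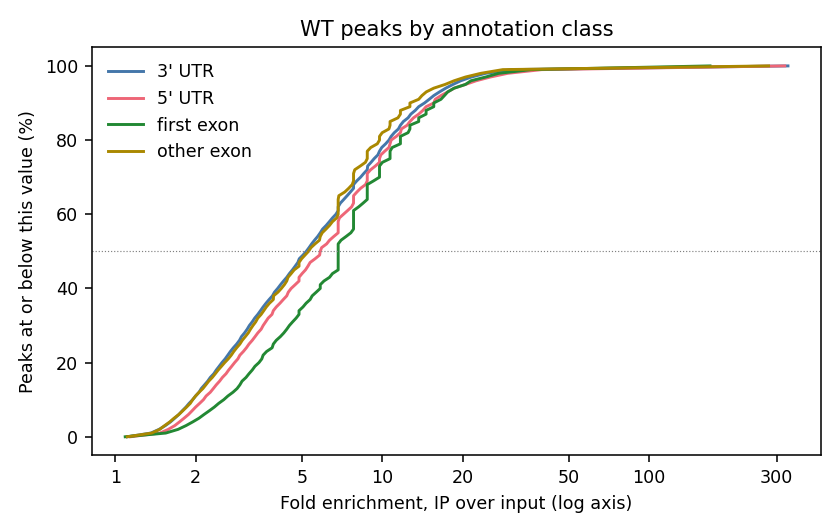
Share of the WT peaks of each annotation class in percent (vertical axis) at or below a given fold enrichment of IP over input (horizontal axis, log scale), 1 line per class; the dotted line marks the median. The first exon line lies to the right, with a median of 6.84 against 5.20 in 3′ UTRs, and rises in steps at values that many peaks share.

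Exon peaks were of unlike kinds. The 2087 peaks in the only exon of a 1-exon transcript had a median of 7.03-fold, and the 3727 in the last of several exons 6.84-fold. The 3813 peaks in internal exons had the lowest median, 4.32-fold, and 42.7% of them reached into another exon, against 5.85% of the peaks in last exons. For 1743 of the 11398 exon peaks (15.3%) the annotated exon belonged to another gene than the one listed, and 15.1% of all peaks were listed under predicted or RIKEN gene models. Gene names of peaks were therefore also checked against RefSeq spans.

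Most genes of the list carried few peaks. A single peak was listed for 7093 genes (44.9%), 2 for 4254 (27.0%), 3 for 2240 (14.2%) and 10 or more for 59 (0.374%), as the bar plot of peaks per gene shows. At least 2 peaks were thus listed for 55.0% of genes (54.2% to 55.7%). Genes with more peaks had longer listed gene models, and their peaks lay in other places. In genes with 1 peak, 52.4% of peaks lay in 3′ UTRs and 16.8% in exons after the first, and the median gene span was 12067 bp. In genes with 10 or more peaks, 29.1% lay in 3′ UTRs and 34.6% in other exons, and the median span was 125046 bp. Both spans are those of the listed models, some of which reach far beyond the RefSeq gene and collect peaks of neighbouring genes. The strongest peak of a gene had a median of 6.84-fold where it was the only one and of 15.0-fold in genes with 10 or more, a maximum over more peaks.

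**Figure D3:**
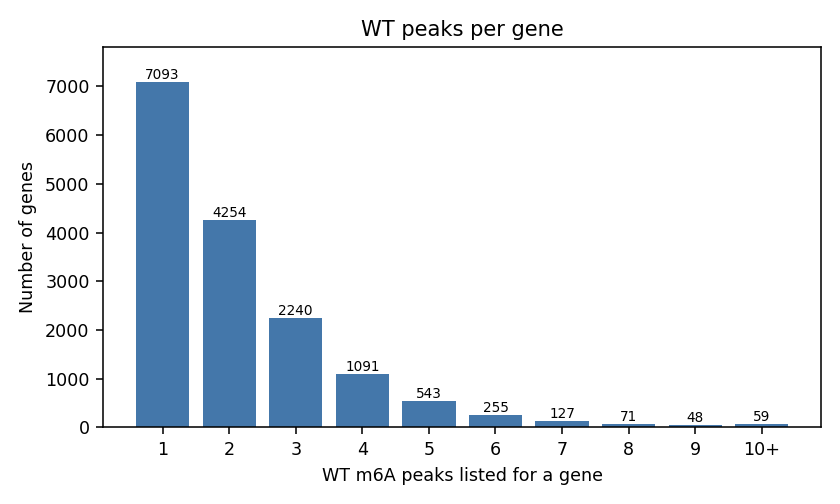
Number of genes (vertical axis) by the number of WT m6A peaks listed for the gene (horizontal axis, the last bar for 10 or more). The bars go from 7093 genes with 1 peak to 48 with 9, and 59 genes have 10 or more.

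The gene with the most peaks by name was Fgfr2, a fibroblast growth factor receptor, with 51. Its listed gene model spans 2960900 bp, against 104358 bp in RefSeq (chromosome 7, 130162451 to 130266808), and only 5 of the 51 peaks lay within the RefSeq gene. The peaks fell in 24 RefSeq coding genes, among them Chst15, Ikzf5, Plekha1, Ate1 and Tacc2, so the count is not one of the receptor gene alone. Other names near the top had the same limit. The predicted model Gm20388 carried 32 peaks over 4434882 bp, the olfactory receptor Olfr56 13 peaks of which 0 lay in its RefSeq span, and Ccdc106 12 peaks of which 4 did.

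The clustered protocadherins, adhesion proteins that give neurons a surface identity, share exons between many promoters, and their peaks were listed repeatedly. Pcdha11 had 29 peaks that merged into 12 regions, Pcdhgc4 25 that merged into 4, Pcdha3 19 in 18 regions and Pcdhgb2 16 in 16. Overlapping gene models make it uncertain which protocadherin such a peak belongs to.

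When merged regions were counted in the only RefSeq coding gene they overlapped, the order of genes was another. Kcnq1, a potassium channel gene, had 22 regions, but its span contains the imprinted noncoding RNA Kcnq1ot1 (chromosome 7, 143213111 to 143296547), which 21 listed peaks overlapped. Ahnak, which encodes a giant scaffold protein, had 21 regions with a strongest fold enrichment of 5.54. Dst, the cytoskeletal linker dystonin, had 20 with a strongest of 17.6, and Pclo, the presynaptic active zone protein piccolo, 17 with a strongest of 10.9. These 4 genes had many moderate peaks, with median fold enrichments of 2.80 to 4.38, below the 5.54 of all peaks. Kmt2d, a histone methyltransferase, followed with 14 regions, the zinc finger homeobox genes Zfhx3 and Zfhx4 with 12 each and the giant cadherins Fat1 and Fat4 with 11 each. Ank2 and Ank3, which encode ankyrins of axons and the axon initial segment, had 11 regions each, with strongest peaks of 26.4-fold and 15.0-fold.

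The 20 strongest peaks lay in other genes than the 20 with the most peaks. The highest fold enrichments were 331 in the 3′ UTR of Zbed4, a zinc finger protein, 329 in the 3′ UTR of Erg, an ETS transcription factor of endothelium, 322 in the 5′ UTR of Inha, the inhibin alpha subunit, and 322 in the 3′ UTR of Krt9, a keratin of the skin. The Zbed4 peak was 2659 bp long (chr15:88780873-88783531) and the Erg peak 1644 bp (chr16:95359647-95361290). Eif3j1, a translation initiation factor subunit, followed with 280-fold in a peak of only 60 bp, and Zxdb, an X-linked zinc finger protein, with 258-fold. Further down stood Syne1, a nuclear envelope linker, at 149-fold, Sema4c, a semaphorin, at 128-fold and Mapk3, the kinase ERK1, at 112-fold. The peak listed for Tsix at 131-fold (chrX:103460396-103460935) is among those inside the span of Xist, and its annotated exon belonged to another gene than Tsix.

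All 20 strongest peaks had strong evidence, with a log10 FDR of -31.0 or lower, but the order by p was not that by fold enrichment. Among the top 20, log10 p was between -32.0 and -241 for 16 peaks, -920 for 1810013L24Rik, -2710 for Syne1, -3290 for the Tsix peak and too small to be written for Fam171a2. Of these 20 peaks, 8 lay in 3′ UTRs and 7 in 5′ UTRs. Of the 100 strongest, 40.0% lay in 5′ UTRs and 36.0% in 3′ UTRs, against 18.9% and 47.2% of all peaks. Since the ranking used fold enrichment, this is a description of the ranked list.

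The strongest WT peaks recurred in the independent Tyrobp-/- pools, at lower values. Of the top 20, 19 overlapped a Tyrobp-/- peak by at least 1 bp, the exception being Pabpc1l2a-ps on chromosome X at 169-fold. Of the top 100, 94 did (87.4% to 97.8%), against 80.0% of all WT peaks. The top 100 were long, with median blocks of 716.5 bp. Of all WT peaks of 401 to 800 bp, 95.1% overlapped a Tyrobp-/- peak, so the 94 were not more than peaks of that length had. The 94 had a median of 73.9-fold in WT and 34.8-fold in Tyrobp-/- mice, and 79 of them were lower in Tyrobp-/-. Ranked the other way, 92 of the 100 strongest Tyrobp-/- peaks overlapped a WT peak, and 74 of these were lower in WT, so whichever list did the choosing had the higher values. The gap was uneven. The Zbed4 peak was at 10-fold in Tyrobp-/- mice, Zxdb at 18.1-fold and Gm14308 at 12.4-fold, whereas Krt9 was at 229-fold and Kctd1 at 110-fold. The peaks listed for Fam171a2, Syne1 and Rpl35a-ps6 were higher there than in WT, at 143-fold, 313-fold and 386-fold, although the last overlapped only Wdr66 among RefSeq genes. With 1 pooled value per genotype, these differences have no replicate check and were not tested.

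**Figure D4:**
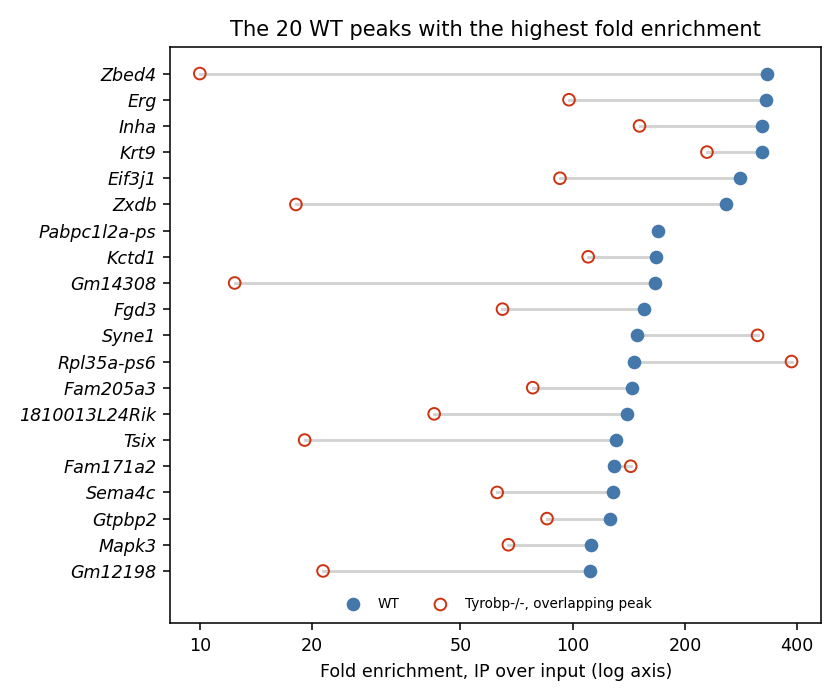
Fold enrichment of IP over input (horizontal axis, log scale) of the 20 WT peaks with the highest values, named by their listed gene; filled points are WT, open points the Tyrobp-/- peak that shared the most bases, and grey lines join them. 16 of the 19 open points lie to the left of the filled one, and Pabpc1l2a-ps has none.

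The longest peaks by summed block length covered several kilobases. Apc2, a neuronal relative of the tumour suppressor APC, had a single block of 6135 bp (chr10:80311052-80317186) at 16.6-fold. Bsn, the active zone protein bassoon, had one of 5484 bp in exon 5 of 12 at 12.7-fold, and Plec, the cytolinker plectin, 5459 bp in 2 blocks, annotated to exon 32 of 33, at 11.3-fold. The synaptic adhesion genes Slitrk5 and Slitrk3 had 4246 bp in 2 blocks at 14.7-fold and 4100 bp in 3 blocks at 26.9-fold. The 10 longest peaks had 11.3 to 26.9-fold enrichment, each above the third quartile of all peaks. All 10 overlapped a Tyrobp-/- peak in their blocks, at 6.79 to 48.3-fold.

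The peaks with the lowest p, chosen after their values were seen, included many in transcripts known from neurons. The p of 3 peaks was too small to be written: Fam171a2 at 129-fold, Syncrip, an RNA-binding protein, at 52.0-fold and Pcbp4, a poly(C)-binding protein, at 36.0-fold. They were followed by Ppp1r9b, the spine protein spinophilin, with 11.6-fold and a log10 p of -24000, Ndn, the imprinted gene necdin, with 25.0-fold and -20100, and Camk2a with 5.54-fold and -16500. Camk2n1, an inhibitor of CaMKII, had 16.2-fold and -15900. Fold enrichment and p therefore ranked peaks differently, and the Camk2a peak stood exactly at the median fold enrichment of the list.

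Gene groups were described by the share of members with a peak. Of 21900 RefSeq coding genes, 57.6% had at least 1 listed peak, 34.4% at least 2, 4.66% at least 5 and 21.0% a peak of at least 10-fold. The strongest peak per gene had a median of 7.81-fold, and 47.9% of the genes had a peak at an FDR below 1e-5. No list was tested against this background, and a gene without a peak may be unmethylated or too little expressed, which these files do not separate. In bulk tissue, fewer cells of a type and less RNA per cell cannot be told apart either.

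Of the m6A writer genes, 8 of 9 carried a WT peak, all 8 also at an FDR below 1e-5. Rbm15b, an RNA-binding adaptor that guides the methyltransferase, had the strongest, at 36.1-fold in its 3′ UTR (chr9:106884113-106886204, 2092 bp), and its relative Rbm15 had 5 peaks up to 12-fold. The scaffold Virma reached 9.80-fold, the adaptor Cbll1 8.45-fold, Zc3h13 7.54-fold and Wtap 6.70-fold. The lowest were Mettl16, a separate methyltransferase, at 5.17-fold and the core subunit Mettl14 at 4.23-fold. Mettl3, the catalytic subunit, had 0 peaks under its own name, although 2 listed peaks overlapped its span.

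Both erasers carried peaks outside 3′ UTRs. Fto had 2, up to 23.4-fold in its first exon with a log10 p of -5.99, and Alkbh5 had 1, at 14.6-fold in its 5′ UTR with a log10 p of -5.13. Of the 12 reader genes, 7 carried a peak, near the background. The cytoplasmic readers Ythdf1, Ythdf2 and Ythdf3 had 6.49, 8.12 and 11.2-fold in their strongest, the nuclear reader Ythdc1 11-fold and Prrc2a 14.5-fold. The Ythdc2 peak of 7.81-fold had a log10 p of -1.67, at one of the repeated values. No peak was listed for Igf2bp1, Igf2bp2, Igf2bp3, Hnrnpc or Fmr1.

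Glutamate receptor genes were widely covered. Of the AMPA and kainate receptor subunits 8 of 9 carried a peak and 4 a peak of at least 10-fold, with a median strongest of 12.7-fold. The kainate subunit Grik5 had the strongest, 26.7-fold in its 3′ UTR (chr7:25009849-25010476). For the AMPA subunits the strongest peaks were at 15.5-fold in Gria4, 9.99-fold in Gria3, 7.63-fold in Gria2 and 6.26-fold in Gria1. The Gria3 peak was annotated to the 5′ UTR and the others to 3′ UTRs, and the Gria1 peak was the longest, at 2753 bp. Grik4 had no peak of its own name. All 7 NMDA receptor subunits carried peaks, 27 in total. Grin2a had 6, up to 15.4-fold in its 3′ UTR, whereas the obligate subunit Grin1 had 3, the strongest at 6.84-fold with a log10 p of -2.14. The 10.7-fold of Grin2b and the 15.6-fold of Grin3b also had little evidence, with log10 p of -2.45 and -3.79. Of the metabotropic receptors, 7 of 8 carried a peak, with Grm5 at 13.0-fold and Grm2 at 11.7-fold, and Grm6, a receptor of the retina, had none.

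Genes of GABA receptor subunits were covered as often, with lower values. Of 15, 13 carried a peak, with a median strongest of 6.88-fold, and 3 reached 10-fold. Gabra3 had 28.3-fold with a log10 p of -11.0, the GABA-B subunit Gabbr2 17.9-fold with a log10 p of -4440 and Gabra2 13.7-fold. The subunits Gabrg3 and Gabrd had 3.14 and 3.13-fold. Gabra5, known for its hippocampal expression, and Gabra6, a cerebellar subunit, had no peak under their names, and 2 listed peaks overlapped the span of Gabra5.

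Postsynaptic scaffold genes all carried a peak, 15 of 15, and 14 had at least 2. Shank1 had 21.8-fold in a 3′ UTR peak of 2906 bp, Dlg2, which encodes PSD-93, 21.1-fold and Dlgap2 19.6-fold. Dlg4, which encodes PSD-95, reached 12.8-fold with 5 peaks. Paralogues differed widely: Shank3 had 5.69-fold, and Dlgap1 and Homer2 only 2.86 and 2.93-fold. The synaptic adhesion genes had the highest median strongest peak of the synaptic lists, 13.7-fold. Of 10 genes, 9 carried a peak, 9 a peak of at least 10-fold and 5 at least 5 peaks. Their median of 5 peaks per gene was also the highest of these lists, and a strongest peak is a maximum over them. Nrxn3, at 13.7-fold, had a log10 p of only -3.24. Nlgn3 had 7 peaks up to 18.7-fold, Lrrtm1 17.2-fold in a peak of 2557 bp annotated to the 5′ UTR, Nrxn2 17.1-fold and Lrrtm4 17.0-fold. Only 30.0% of the adhesion genes' 40 peaks lay in 3′ UTRs, against 53.4% of the peaks of all coding genes. Lrrtm2 had no peak of its own name, and 3 listed peaks overlapped its span.

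Of the calcium/calmodulin-dependent kinase genes, 9 of 10 carried a peak. Camk2d had 19.5-fold but with a log10 p of -4.88, Camk2g 13.8-fold with a log10 p of -4870, Camk1d 10.9-fold and Camk2b 9.60-fold. Camkk2 and the pseudokinase Camkv were lowest, at 3.39 and 2.71-fold, and Camk1 had none.

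All 17 immediate early genes, which neurons induce upon activity, carried a peak at an FDR below 1e-5, and 15 had at least 2 peaks. Fosb and Jun had the strongest, at 35.5-fold and 34.9-fold, annotated to the 3′ UTR and the 5′ UTR. The Jun peak (chr4:95049630-95052222) holds the Jun start sequence shown above. It measured 2593 bp, and not all of these bases need lie in the 5′ UTR. Egr4, Fosl2 and Ier2 reached 17.6, 16.6 and 16.1-fold. Bdnf, a neurotrophin with many alternative first exons, had 7 peaks, all annotated to the 5′ UTR, up to 15.4-fold. Among the lowest were Fos at 4.84-fold, Nr4a1 at 4.75-fold, Nr4a3 at 4.10-fold and Arc, a capsid-like protein of dendrites, at 5.57-fold, so members of the Fos family spanned the range. Of 13 circadian clock genes, 10 carried a peak, led by Rora at 18.1-fold and Per1 at 14.9-fold. Clock itself had 1.58-fold, and Arntl, Per3 and Cry1 had no peak of their own name.

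Of 14 long noncoding RNAs, 11 carried a peak, and 7.69% of their 39 peaks were annotated to 3′ UTRs. Mirg, a host of imprinted microRNAs, had 72.3-fold in a 91 bp peak, Tug1 15.1-fold in a peak of 3205 bp, Pvt1 14.6-fold with a log10 p of -3.51 and the imprinted Peg13 11.8-fold over 3918 bp. The nuclear RNAs Malat1 and Neat1 were low, at 3.83 and 3.54-fold, and Meg3 had 4 peaks up to 4.66-fold. By listed name Miat had the most peaks, 9, up to 7.81-fold, but only 5 listed peaks overlapped its RefSeq span. By that measure Kcnq1ot1 had 21, and Neat1, Meg3 and Tug1 had 7 each. Gas5 had no peak, and peaks over Xist and Kcnq1ot1 were listed under other names.

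Genes of the amyloid and tau pathways carried peaks in 11 of 12 cases, with a low median strongest of 3.45-fold. Gsk3b, a tau kinase, had 23.2-fold in its 5′ UTR, Adam10, the alpha-secretase, 16.0-fold, App 11.2-fold with a log10 p of -4.91 and Bace1, the beta-secretase, 9.53-fold. Mapt, which encodes tau, had 3 peaks in its 3′ UTR up to 5.29-fold. Apoe had 1.41-fold, close to the lowest value of the list.

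Ribosomal protein genes carried a peak less often than coding genes at large. Of 84 ribosomal protein genes, 29 (34.5%) carried a peak, against 57.6% of coding genes, and 26.2% did so at an FDR below 1e-5, against 47.9%. Their median strongest peak was 2.79-fold, and only Rps10 reached 10-fold, at 11.7-fold with a log10 p of -2.71. That peak lay outside the RefSeq span of Rps10. Counted by overlap with RefSeq spans, 26 of the 84 genes had a peak, against 13248 of 21900 coding genes. Of 81 oxidative phosphorylation subunit genes, 51 (63.0%) carried a peak, near the background, but with a median strongest of 2.38-fold. Ndufs4 had 43.0-fold and Sdhb 26.4-fold, with log10 p of -11.7 and -6.83. Genes named Zfp, which encode zinc finger proteins, were the opposite: 349 of 394 (88.6%) carried a peak, 267 at least 2 and 196 one of at least 10-fold, with a median strongest of 10.7-fold. Zfp142 had 12 peaks up to 20.1-fold and Zfp462, a neurodevelopmental gene, 8 up to 22.9-fold. Some ribosomal and zinc finger genes have near-identical copies, between which reads can be split. Transcript levels were not analysed here.

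Most markers in each list of the tissue's own cell types carried a peak. Among the markers of pyramidal neurons Fibcd1, a CA1 gene, had 20.5-fold, whereas Nrgn and Slc17a7, a vesicular glutamate transporter, had 1.86 and 2.25-fold. Among those of dentate granule neurons Prox1 had 5 peaks up to 9.77-fold and Dsp 5 up to 8.63-fold, and 3 of the 5 genes kept a peak at an FDR below 1e-5. Inhibitory neuron markers had the lowest median strongest of these lists, 2.40-fold, with Gad2 at 2.01, Sst at 2.68 and Pvalb at 1.99-fold. Slc32a1, the vesicular GABA transporter, was the exception at 12-fold, and Gad1 had none.

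Of the glial lists, all 6 astrocyte markers carried a peak, from Gfap at 2.96-fold to Gja1 at 8.79-fold, where the log10 p was only -1.93. The glutamate transporter Slc1a2 had 6.11-fold with a log10 p of -10800. All 6 oligodendrocyte markers carried a peak, with Mag, a myelin adhesion protein, at 67.9-fold, Cnp at 14.6-fold and Mbp at 7.98-fold. The Mag peak measured 181 bp and was at 173-fold in Tyrobp-/- mice. Of 3 markers of oligodendrocyte precursors, Pdgfra and Cspg4 had 11.7 and 11.6-fold and Gpr17 had no peak of its own name. Of 8 microglial markers 6 carried a peak, Cx3cr1 up to 13.0-fold, C1qa 9.25-fold, Tmem119 8.72-fold, Csf1r 7.83-fold, P2ry12 5.67-fold and Aif1 3.37-fold. By listed name Cx3cr1 had 8 peaks and Csf1r 5, but only 3 and 1 listed peaks overlapped their spans. The strongest peak listed for either may thus lie outside the gene. Trem2 and Tyrobp itself had no peak in WT mice. All 4 endothelial markers carried a peak, with Cldn5, a tight junction protein, at 13.3-fold.

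Markers of tissues that a dissection could add also carried peaks, in 2 of 4 cases for the choroid plexus and 3 of 6 for the hypothalamus, against 57.6% of coding genes. Of the choroid plexus markers Kl had peaks up to 6.84-fold, with a log10 p of -1.42 for the strongest, and Clic6 up to 6.28-fold, and the defining Ttr and Folr1 had none of their own name. Of the hypothalamic markers, Pomc had 8.79-fold with a log10 p of -2.41, Oxt 4.88-fold with a log10 p of -11.9 and Trh 1.86-fold. Avp, Pmch and Hcrt had none of their own name. Listed peaks overlapped the spans of Ttr and Pmch, 1 each. Counted by span, 3 of 4 choroid plexus and 4 of 6 hypothalamic markers had a peak, against 13248 of 21900 coding genes. Blood markers Hba-a1, Hbb-bs and Alas2 had 0 peaks.

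**Figure D5:**
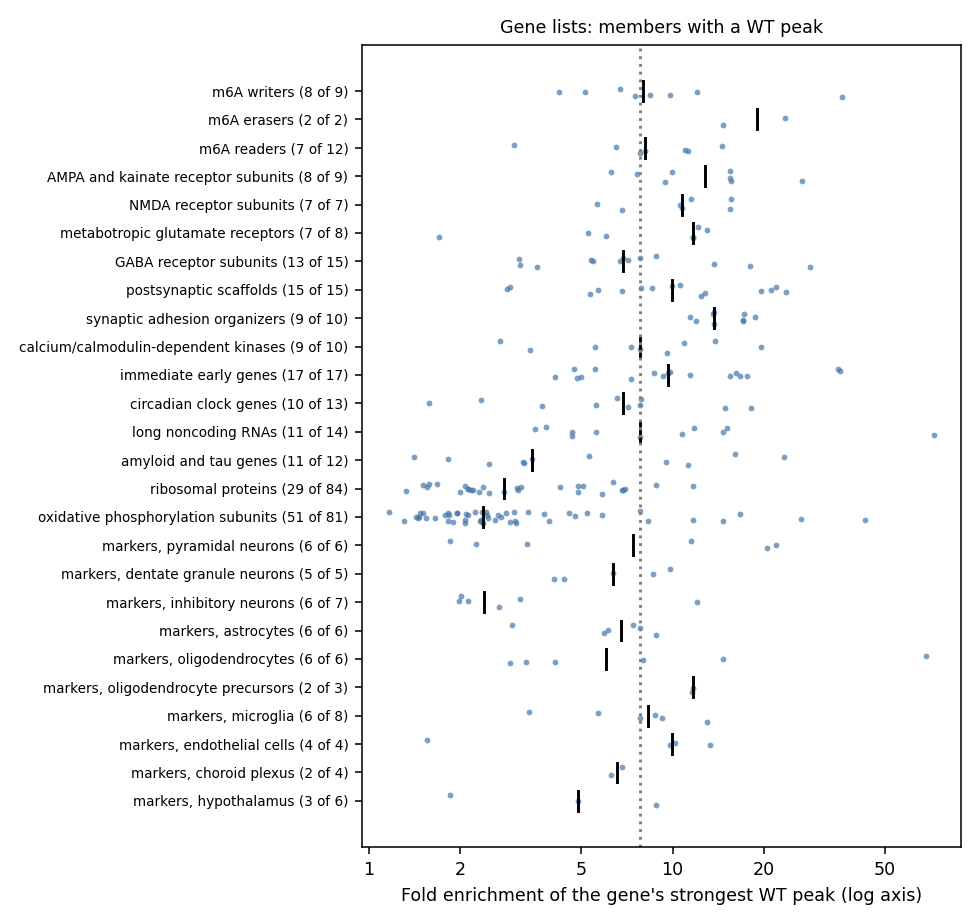
Fold enrichment of the strongest WT peak of each gene that carried one (horizontal axis, log scale), in rows of gene lists with the number of members that carried a peak; black bars are list medians and the dotted line is the median of all coding genes with a peak, 7.81. Synaptic adhesion genes lie to the right, between 11.4 and 18.7, and ribosomal proteins and oxidative phosphorylation subunits mostly to the left, with medians of 2.79 and 2.38.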

How the data were processed

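Per the study's methods, the authors cleaned reads with fastp at default settings (adapters and low base quality) and aligned them with HISAT2 (GRCm38, Ensembl release 96), before exomePeak called IP peaks over the joined replicates and ChIPseeker annotated them; settings of HISAT2 and exomePeak are not given in the sources used here. An IP and an input library of the same number were taken as made from 1 RNA pool, the pool being the study's sample. The authors deposited per library the counts of raw and valid reads and the percent of valid, Q20, Q30 and GC bases. Per peak they deposited the p-value, log10 p and FDR, blocks, annotation and the fold enrichment, a ratio of IP over input. A deposited table of the authors' own comparison between genotypes (log2 fold changes and p-values) was not used.

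Peaks were counted, and medians and exact 95% (Clopper-Pearson or order-statistic) intervals computed, in Python 3.11.15 with pandas 2.3.3 and scipy 1.17.1, after testing on simulated data. Peaks were given to genes by listed name, of which 14465 of 15781 (91.7%) matched RefSeq, and 94.5% of the matched peaks overlapped that gene's span. An overlap needed 1 bp. The text names the 20 genes with the most peaks, the 20 strongest and 10 longest peaks, and members of fixed gene lists, largely by rule; any other name was picked once its values had been seen. Some genes that this rule names are not reported here. The members and lists were chosen with earlier results of these data known.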

Additional observations from a re-analysis of the deposited data

How the results depend on the processing

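Shares and medians moved with the threshold. The share in 3′ UTRs, 47.2%, became 57.7% at a peak-calling FDR below 1e-5, 49.9% at an FDR below 0.05 (this and the merging and RefSeq settings were chosen after seeing the data), 45.3% at a fold enrichment of at least 4, 51.1% with 1 peak per gene and 53.3% when weighted by block length. The share of peaks of more than 1 block, 28.9%, became 35.6%, 30.2%, 33.6% and 34.9% under the first 4 of these settings. The share of genes with at least 2 peaks, 55.0%, became 46.1% at an FDR below 1e-5, 53.2% at an FDR below 0.05, 41.1% at a fold enrichment of at least 4, 51.6% with 1 peak per merged region and 56.0% with regions in their only RefSeq coding gene. Median fold enrichments at an FDR below 1e-5, a fold enrichment of at least 4 and 1 peak per gene were 5.39, 8.21 and 7.81 in 3′ UTRs, 6.01, 8.40 and 8.79 in 5′ UTRs, 7.01, 8.47 and 8.79 in first exons and 4.83, 7.81 and 7.99 in other exons. At an FDR below 0.05 they were 5.72 in 5′ UTRs, 7.03 in first exons and 4.88 in other exons. The order of 3′ UTRs and other exons turned at both FDR thresholds, and at a fold enrichment of at least 4. The share of the 100 strongest peaks found in the Tyrobp-/- list, 94.0%, became 81.0% with a reciprocal overlap of 50% and was between 92.0% and 96.8% otherwise. At an FDR below 1e-5, 1 eraser and 3 of 5 dentate granule markers were left with a peak. The GC difference of 1.91 percentage points was between 1.65 and 2.19 when any 1 of the 6 libraries was left out. With the replicate number as a block the difference stayed 1.91 (exact sign-flip test, p = 0.25, the smallest 3 pairs allow). The depth behind a peak is unknown, so a missing peak sets no limit on methylation.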

Other observations

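Peaks were spread unevenly over chromosomes. On chromosome X 390 of 966 RefSeq coding genes (40.4%) carried a WT peak, and on chromosome 7 968 of 2030 (47.7%), against 71.6% of the 511 genes of chromosome 18. The median fold enrichment was lowest on chromosome X, at 4.88, and on the other numbered chromosomes it was between 5.04 (chromosome 19) and 6.07 (chromosome 14).

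The mitochondrial chromosome, whose transcripts are polyadenylated, carried 11 WT peaks of 1.63 to 12.3-fold. The strongest was listed under mt-Nd4 with a log10 p of -370, but its annotated exon belonged to another gene. The peak in mt-Nd3 was at 8.08-fold with a log10 p of -110. The Tyrobp-/- list held 9 peaks on the mitochondrial chromosome.

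Peaks over microRNA hairpins differed in strength. Of hairpins inside WT peaks, Mir1905 lay in a peak of 39.1-fold and Mir2139 in one of 21.6-fold in Klhdc7a, whereas Mir22, known from many tissues, lay in one of 2.69-fold and Mir770, in the Meg3 region, in one of 1.91-fold.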
